A study of Mus musculus with 6 samples.

Results

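The genes described here code for synaptotagmins, SNARE proteins and their regulators, the proteins that bring vesicles to a membrane and fuse them with it. They were taken by symbol from the gene table of an RNA-seq experiment on mouse C2C12 cells. The symbols were those of the synaptotagmins (Syt), syntaxins (Stx), VAMPs, Snap23, Snap25, Snap29 and Snap47, syntaxin-binding proteins (Stxbp), synapsins (Syn), synaptojanins (Synj), Rab3 GTPases, complexins (Cplx) and synaptophysin (Syp). In all, 61 of 28892 genes listed matched. They comprised 14 synaptotagmins, 15 syntaxins, 7 VAMPs, 4 genes of the SNAP-25 family, 8 Stxbp genes including the pseudogene Stxbp3-ps, 3 synapsins, 2 synaptojanins, 4 Rab3 genes, 3 complexins and Syp.

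C2C12 is a line of mouse myoblasts from strain C3H. The tested cells, C2C12 Myod1-/-, came from 1 clone in which CRISPR/Cas9 delivered by a lentivirus had disrupted Myod1, the gene of a transcription factor that drives muscle differentiation. They were compared with C2C12 WT cells. Both were kept for 6 days in Ndiff227, a serum-free medium in which, by the study's description, the knockout cells grew as floating spheres and the wild type cells made fine myotubes. There were 3 libraries of each genotype, and nothing in the labels says whether the 3 came from separate cultures, so p-values measure the spread between these samples, which may be technical. With 1 clone and a growth form that differs along with the genotype, the effects of Myod1, of the clone and of the growth form cannot be told apart.

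A SNARE complex forms when a SNARE on the vesicle, usually a VAMP, zips together with a syntaxin and a SNAP-25 family protein on the target membrane. Sec1/Munc18 proteins, here the Stxbp genes, bind syntaxins and guide the assembly, complexins clamp or support it, and synaptotagmins with calcium-binding C2 domains trigger fusion. Neurons use a dedicated set (among them Syt1, Stx1a, Snap25, Vamp2 and Cplx1), while most other cells secrete and recycle membrane with homologs such as Stx4, Snap23, Vamp3, Vamp8 and Stxbp3. Muscle fibres use Stx4, Snap23 and Vamp2 to bring glucose transporters to the surface. For the comparison, 27 of the 61 genes were counted as neuronal forms and 34 as other forms, most of them widely expressed. The split follows a list of gene names and not the levels in these cells. Syt7 and Syt11 were placed among the other forms and Syt13 among the neuronal forms, so counts and sums by form depend on such choices.

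Levels are FPKM, fragments per kilobase of gene, scaled to the mapped fragments of the library. A fragment on a gene of 1 kb was worth 0.0546 to 0.0619 FPKM, which implies 16.2 to 18.3 M fragments per library. Myod1 itself had 0.0614, 0 and 0 FPKM in C2C12 Myod1-/- libraries, against 17.3, 25.8 and 27.7 FPKM in C2C12 WT libraries. All 6 myotube markers fell in C2C12 Myod1-/- cells, where they summed to between 0.0584 and 0.243 FPKM, against 2330 to 2455 FPKM in C2C12 WT cells. Of 9 neuron markers 8 were listed, and they summed to 0.546 to 0.611 FPKM in C2C12 Myod1-/- cells and 4.84 to 5.60 FPKM in C2C12 WT cells. Rbfox3, which defines mature neurons, was at or below 0.0210 FPKM everywhere. The bulk samples cannot separate a smaller number of cells of a type from less RNA in each cell.

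Of the 61 genes, 41 had a mean of at least 0.5 FPKM over the 6 libraries and were tested with limma on log2(FPKM + 0.1), together with all other genes of the table. In C2C12 Myod1-/- cells 17 of the 41 rose and 9 fell. Here and below, these words mean a Benjamini-Hochberg adjusted p under 0.05, adjusted over the 14045 genes tested. Over all genes tested 27.9% rose and 33.3% fell. The study itself used another rule, a log2 difference of 1 or more in size with an unadjusted p up to 0.05. By that rule 6 of the 41 were higher and 5 were lower, against 8.67% and 11.7% of all genes. The libraries of the genotypes did not overlap for 29 of the 41, against 67.9% of all genes. The median log2 difference was 0.14 for the 41 genes and -0.05 for all genes. More of the vesicle release genes rose and fewer fell than among all genes, but the list was given no test of its own, and the account that follows is of single genes. The change was under 2-fold for 15 of the 26 genes called.

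**Figure D1:**
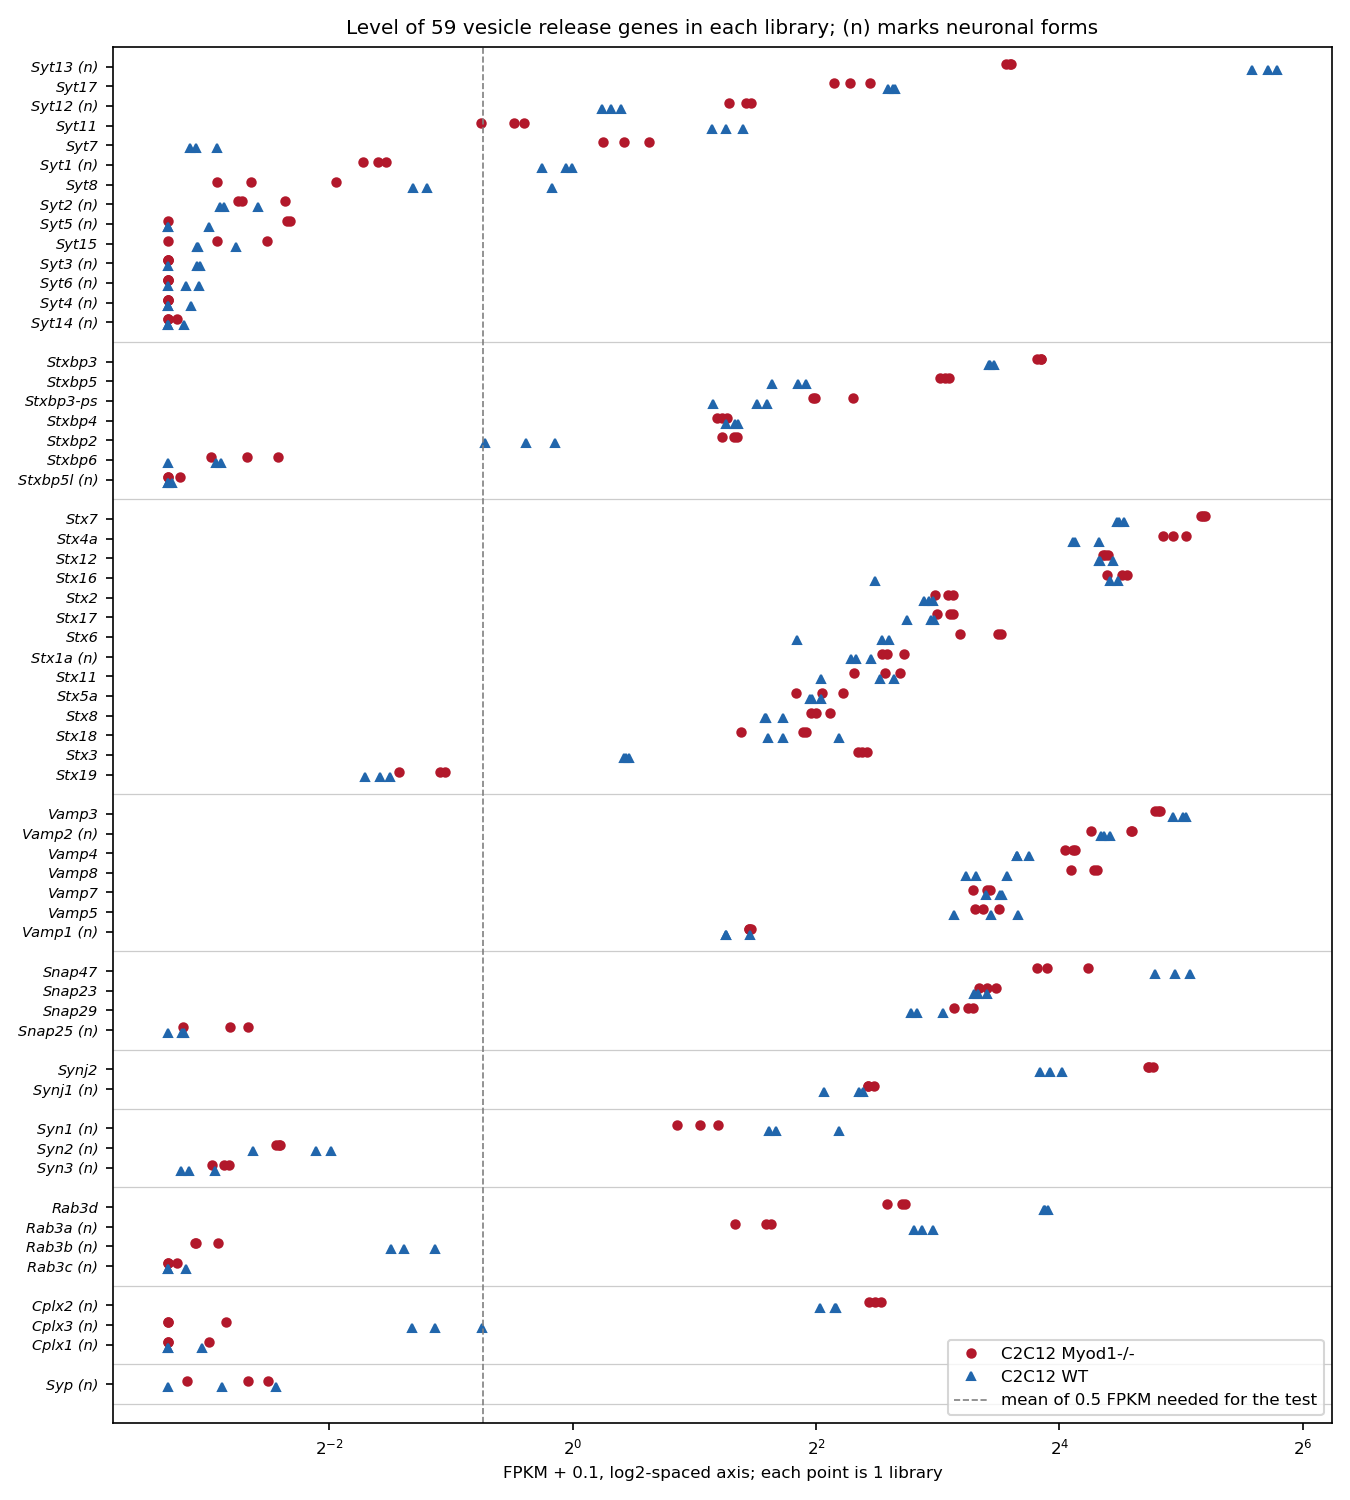
Level of 59 of the genes in the 3 C2C12 Myod1-/- libraries (red circles) and the 3 C2C12 WT libraries (blue triangles), as FPKM + 0.1 on a log2-spaced axis, with neuronal forms marked (n). Syt13 stands at 11.7 to 12.1 FPKM in C2C12 Myod1-/- cells and 47.8 to 55.0 FPKM in C2C12 WT cells, and most other neuronal synaptotagmins lie at the left edge in both genotypes.

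The synaptotagmins held the largest changes in both directions. Syt13, a member whose C2 domains lack the residues that bind calcium, was by far the most abundant of them. It had 12.1, 11.7 and 11.99 FPKM in C2C12 Myod1-/- libraries, against 47.8, 52.4 and 55.0 FPKM in C2C12 WT libraries. The genotypes were far apart and Syt13 fell, being 4.34-fold lower in C2C12 Myod1-/- cells (log2 difference -2.11, SE 0.06, adjusted p = 7.51e-07). Its position is chr2:92915098-92956058, + strand (GRCm38).

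Syt11, which also does not bind calcium and acts in membrane trafficking, had 0.494, 0.657 and 0.615 FPKM in C2C12 Myod1-/- libraries, against 2.54, 2.11 and 2.29 FPKM in C2C12 WT libraries. It fell with a log2 difference of -1.81 (SE 0.14, adjusted p = 6.23e-05). Syt1, the calcium sensor for fast transmitter release in the brain, was low throughout, at 0.202, 0.245 and 0.230 FPKM in C2C12 Myod1-/- libraries and 0.865, 0.738 and 0.899 FPKM in C2C12 WT libraries. Syt1 fell (log2 difference -1.52, SE 0.17, adjusted p = 0.000369) and passed the filter on low values only through its level in wild type cells.

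Syt7 moved the other way. It codes for a calcium sensor of high affinity that acts in the exocytosis of lysosomes and in repair of the plasma membrane. It had 1.09, 1.45 and 1.24 FPKM in C2C12 Myod1-/- libraries, against 0.0128, 0.0168 and 0.0319 FPKM in C2C12 WT libraries, where its level was near that of single fragments. Syt7 rose (log2 difference 3.49, SE 0.21, adjusted p = 1.92e-05) and passed the filter only through C2C12 Myod1-/- cells. The size of its difference hangs on the added 0.1 FPKM, and it ranged from 1.14 to 5.42 over the alternatives.

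Syt12, another member with no calcium binding, had 2.65, 2.34 and 2.58 FPKM in C2C12 Myod1-/- libraries, against 1.08, 1.14 and 1.22 FPKM in C2C12 WT libraries. It rose 2.20-fold (log2 difference 1.07, SE 0.10, adjusted p = 0.000146). Part of its annotated exons, 17.2% of the bases, is shared with a gene on the opposite strand, and the library kit did not keep strand. The other tested synaptotagmin, Syt17, differed by less, with a log2 difference of -0.33 (adjusted p = 0.0151). Syt13 thus made up 56.5%, 53.3% and 56.0% of all synaptotagmin FPKM in C2C12 Myod1-/- libraries and 81.4%, 82.7% and 83.3% in C2C12 WT libraries. The remaining 8 synaptotagmins were under the filter, among them Syt2, Syt3, Syt4, Syt5 and Syt6.

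**Figure D2:**
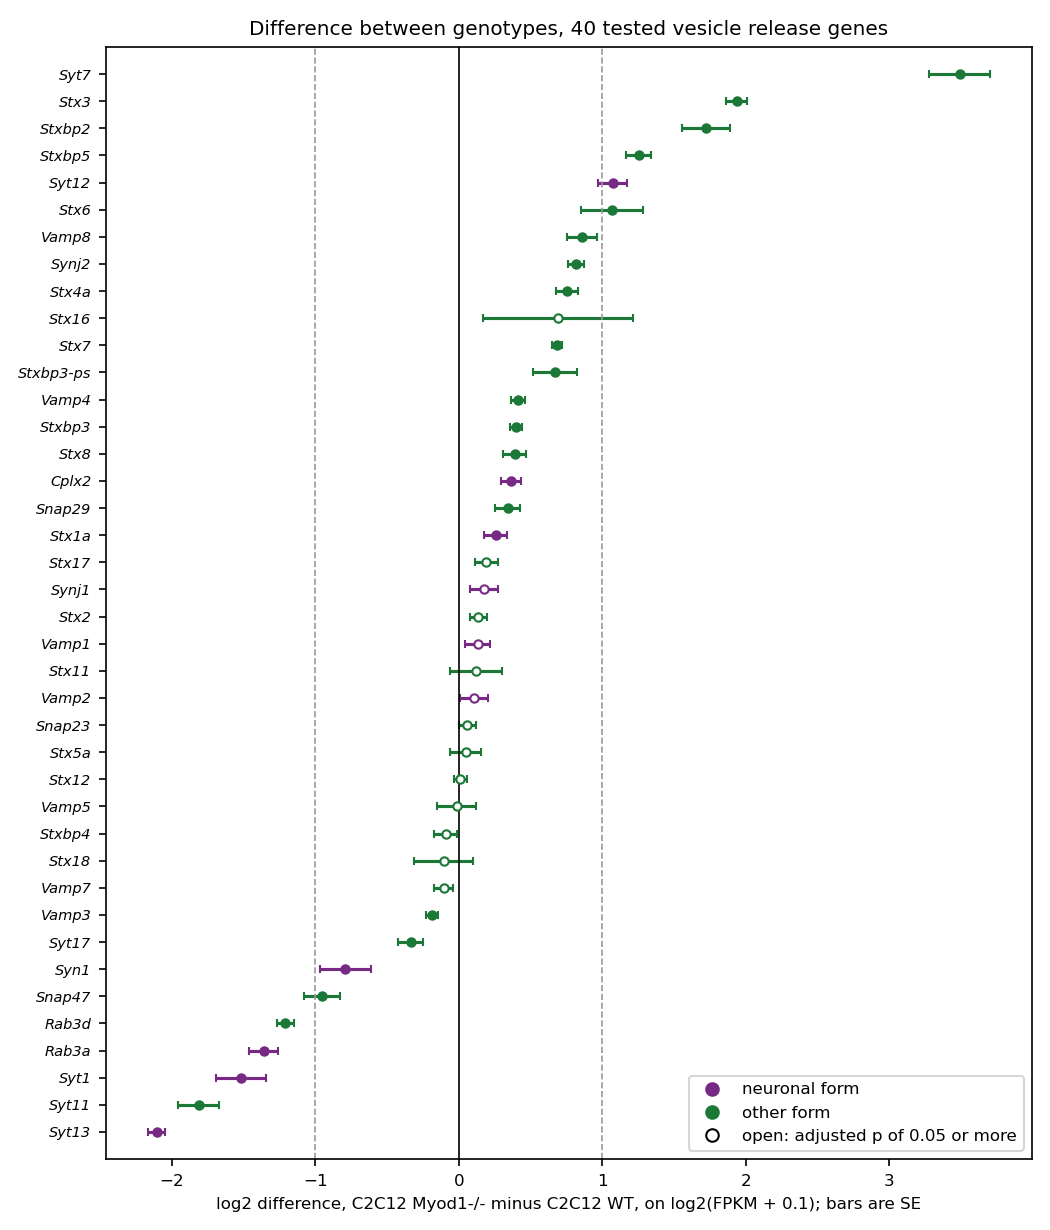
Log2 difference of 40 tested genes, C2C12 Myod1-/- minus C2C12 WT, with SE, for neuronal forms (purple) and other forms (green). Filled points have an adjusted p under 0.05, dashed lines mark 2-fold, and Syt7 (3.49) and Syt13 (-2.11) lie at the ends.

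Among the syntaxins, 6 of 13 tested rose and none fell at that threshold, where 27.9% of all genes rose and 33.3% fell. At an unadjusted p under 0.05 none fell either, and limma was the only tool run. Stx3, the syntaxin of the apical membrane of epithelial cells and of several regulated secretory cells, had 5.11, 4.97 and 5.23 FPKM in C2C12 Myod1-/- libraries, against 1.28, 1.24 and 1.26 FPKM in C2C12 WT libraries. It rose 4.06-fold (log2 difference 1.94, SE 0.07, adjusted p = 2.26e-06), and with the sum of its annotated transcripts in place of the gene value the difference was 0.98 (adjusted p = 0.0310). Stx6, which serves the trans-Golgi network and endosomes, had 11.1, 11.4 and 8.97 FPKM in C2C12 Myod1-/- libraries, against 5.97, 5.72 and 3.50 FPKM in C2C12 WT libraries. It rose 2.07-fold (log2 difference 1.07, SE 0.22, adjusted p = 0.00540). The spread within each genotype was wider for Stx6 than for Stx3, and with the sum of annotated transcripts the call for Stx6 was lost (log2 difference 1.61, adjusted p = 0.0810).

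The 3 syntaxins with the highest levels in C2C12 Myod1-/- cells were Stx7, Stx4a and Stx16. Stx7, a SNARE of late endosomes and lysosomes, had 36.2, 36.5 and 35.7 FPKM in C2C12 Myod1-/- libraries, against 22.1, 23.0 and 22.3 FPKM in C2C12 WT libraries, and rose (log2 difference 0.68, SE 0.04, adjusted p = 1.31e-05). Stx4a, the table's symbol for syntaxin 4 of the plasma membrane, had 30.5, 32.8 and 28.7 FPKM in C2C12 Myod1-/- libraries, against 17.4, 19.9 and 17.2 FPKM in C2C12 WT libraries, and rose (log2 difference 0.75, SE 0.08, adjusted p = 0.000226). Stx16 showed what a single library can do. It had 22.7, 20.8 and 23.4 FPKM in C2C12 Myod1-/- libraries and 5.50, 21.3 and 22.2 FPKM in C2C12 WT libraries, so that replicate 1 of the wild type alone stood apart, and its difference did not pass the test (adjusted p = 0.294). The cause was not tested, and Stx16 is mentioned after its values were seen.

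The neuronal syntaxin Stx1a was present in both genotypes, with 5.71, 6.48 and 5.88 FPKM in C2C12 Myod1-/- libraries and 5.38, 4.92 and 4.78 FPKM in C2C12 WT libraries. It rose by a small margin (log2 difference 0.26, SE 0.08, adjusted p = 0.0283), and the call was lost without C2C12 Myod1-/- replicate 2 or 3 or C2C12 WT replicate 2 or 3 (adjusted p between 0.0588 and 0.0888). It was also lost with the sum of annotated transcripts (adjusted p = 0.339). Stx4a shares 124 exonic bases with a gene on the opposite strand.

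Of the Stxbp genes 4 of 6 tested rose and 2 did not pass the test, where 27.9% of all genes rose. The 4 include the pseudogene Stxbp3-ps. Stxbp2 (Munc18-2), the partner of Stx3 and Stx11 in secretory cells of the immune system and epithelia, had 2.45, 2.24 and 2.41 FPKM in C2C12 Myod1-/- libraries, against 0.804, 0.507 and 0.666 FPKM in C2C12 WT libraries. It rose 3.60-fold (log2 difference 1.72, SE 0.17, adjusted p = 0.000170). Stxbp5 (tomosyn), which holds syntaxins in complexes that cannot fuse, had 8.41, 8.01 and 8.24 FPKM in C2C12 Myod1-/- libraries, against 3.67, 3.02 and 3.51 FPKM in C2C12 WT libraries, and rose 2.42-fold (log2 difference 1.25, SE 0.09, adjusted p = 3.30e-05). Both genes rose, as Stx3 did, and none of their libraries overlapped between genotypes, which held for 67.9% of all genes tested. Stx11, the other partner of Stxbp2, did not pass the test (adjusted p = 0.587), and its libraries overlapped.

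Stxbp3 (Munc18c), the partner of syntaxin 4, had 14.3, 14.3 and 14.0 FPKM in C2C12 Myod1-/- libraries, against 10.7, 10.6 and 10.9 FPKM in C2C12 WT libraries, and rose 1.32-fold (adjusted p = 0.000285). Its processed pseudogene Stxbp3-ps was also called higher, and reads of the gene and the pseudogene can be mistaken for each other.

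Leukocyte markers were looked at beside these genes because Stxbp2, Stx3, Stx7 and Vamp8 are also used by blood cells. Of the 8 markers, which stand on 9 lines of the table, 2 rose (Cd14 and Cd68), 1 fell (Lyz2) and 6 lines were under the filter. Over all genes tested 27.9% rose and 33.3% fell. The sum of the marker lines was 75.3 to 76.2 FPKM in C2C12 Myod1-/- libraries and 13.6 to 16.0 FPKM in C2C12 WT libraries. Each line under the filter averaged less than 0.5 FPKM, so the sum rests mostly on Cd14, Cd68 and Lyz2 and is not a level of the whole list. Ptprc, which all leukocytes carry, averaged 0.0116 FPKM in C2C12 Myod1-/- cells and 0.0154 FPKM in C2C12 WT cells.

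The VAMPs were all tested: 2 of 7 rose, 1 fell and 4 did not pass the test, where 27.9% of all genes rose and 33.3% fell. Vamp3 (cellubrevin), the vesicle SNARE of recycling endosomes, was the most abundant, with 28.3, 28.0 and 27.5 FPKM in C2C12 Myod1-/- libraries, against 32.7, 32.3 and 30.4 FPKM in C2C12 WT libraries, and fell by 0.19 on the log2 scale (SE 0.04, adjusted p = 0.0102). Vamp2, the synaptic vesicle SNARE that also carries glucose transporters in muscle and fat, had 23.9, 19.1 and 24.0 FPKM in C2C12 Myod1-/- libraries and 20.1, 20.6 and 21.3 FPKM in C2C12 WT libraries. Its ranges overlapped (adjusted p = 0.378). Vamp1, the form of motor nerve terminals, had 2.67, 2.64 and 2.63 FPKM in C2C12 Myod1-/- libraries and 2.64, 2.29 and 2.29 FPKM in C2C12 WT libraries (adjusted p = 0.229).

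Vamp8 and Vamp4 were the VAMPs that rose, and they are named after their values were seen, as is Vamp5. Vamp8 (endobrevin), a SNARE of late endosomes and secretory granules, had 19.4, 19.7 and 17.0 FPKM in C2C12 Myod1-/- libraries, against 9.84, 11.8 and 9.31 FPKM in C2C12 WT libraries (log2 difference 0.86, SE 0.10, adjusted p = 0.000514). With the sum of its annotated transcripts in place of the gene value the difference was -0.048 and the call was lost. Vamp5 (myobrevin), first known from skeletal muscle, had 11.3, 9.80 and 10.2 FPKM in C2C12 Myod1-/- libraries and 12.5, 10.7 and 8.68 FPKM in C2C12 WT libraries, with overlapping ranges (adjusted p = 0.929).

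In the SNAP-25 family the neuronal form was close to absent. Snap25 had 0.0421, 0.0572 and 0.00849 FPKM in C2C12 Myod1-/- libraries and 0.00912, 0 and 0.00804 FPKM in C2C12 WT libraries, far under the filter. Snap23, its widely expressed homolog, had 11.03, 10.5 and 10.02 FPKM in C2C12 Myod1-/- libraries and 10.5, 9.74 and 9.98 FPKM in C2C12 WT libraries, and the genotypes overlapped (log2 difference 0.06, SE 0.06, adjusted p = 0.414). Snap47, a member with no membrane anchor of its own, was the most abundant, at 18.7, 14.8 and 14.0 FPKM in C2C12 Myod1-/- libraries, against 27.4, 33.6 and 30.7 FPKM in C2C12 WT libraries. It fell 1.93-fold (log2 difference -0.95, SE 0.13, adjusted p = 0.000803), and 11.6% of its exonic bases are shared with Jmjd4 on the opposite strand. The sum of its annotated transcripts was 25.3, 4.31 and 20.2 FPKM in C2C12 Myod1-/- libraries and 8.37, 43.0 and 40.7 FPKM in C2C12 WT libraries, so that on these sums the genotypes overlapped and the call for Snap47 was lost (adjusted p = 0.469). The remaining gene, Snap29, rose (adjusted p = 0.0143), and its adjusted p was 0.0506 without C2C12 Myod1-/- replicate 1.

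The transcripts of Snap23 differed between genotypes where its total did not pass the test. Transcript Snap23-203 carries an exon of 33 bases within the coding sequence, on chromosome 2. Its coding sequence has 663 bases, against 630 bases in Snap23-202, so the exon adds 11 codons and keeps the frame.

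Snap23-203 was listed at 0 in all 3 C2C12 Myod1-/- libraries and had 8.13, 8.58 and 3.99 FPKM in C2C12 WT libraries. Snap23-202, which lacks the exon, had 16.2, 15.6 and 14.9 FPKM in C2C12 Myod1-/- libraries, against 5.19, 6.00 and 11.2 FPKM in C2C12 WT libraries. The exon was thus in 0% of the transcript FPKM that could carry it in every C2C12 Myod1-/- library, and in 43.3%, 48.8% and 22.7% in the C2C12 WT libraries. The genotypes did not overlap, and the third wild type library lay well below the other wild type ones. These values are StringTie's division of reads among overlapping transcripts and were given no test. Transcripts with and without an exon were set side by side for 55 internal exons of the vesicle release genes. Some of these exons stood at 100% or at 0% in every library and could only overlap. The genotypes did not overlap in 8 of the 55, against 10.6% of 18205 such exons over all genes. Among exons with 0.5 FPKM or more in each genotype they did not overlap in 3 of 48, against 10% over all genes. These shares are near the background, and Snap23 was picked after its values were seen.

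**Figure D3:**
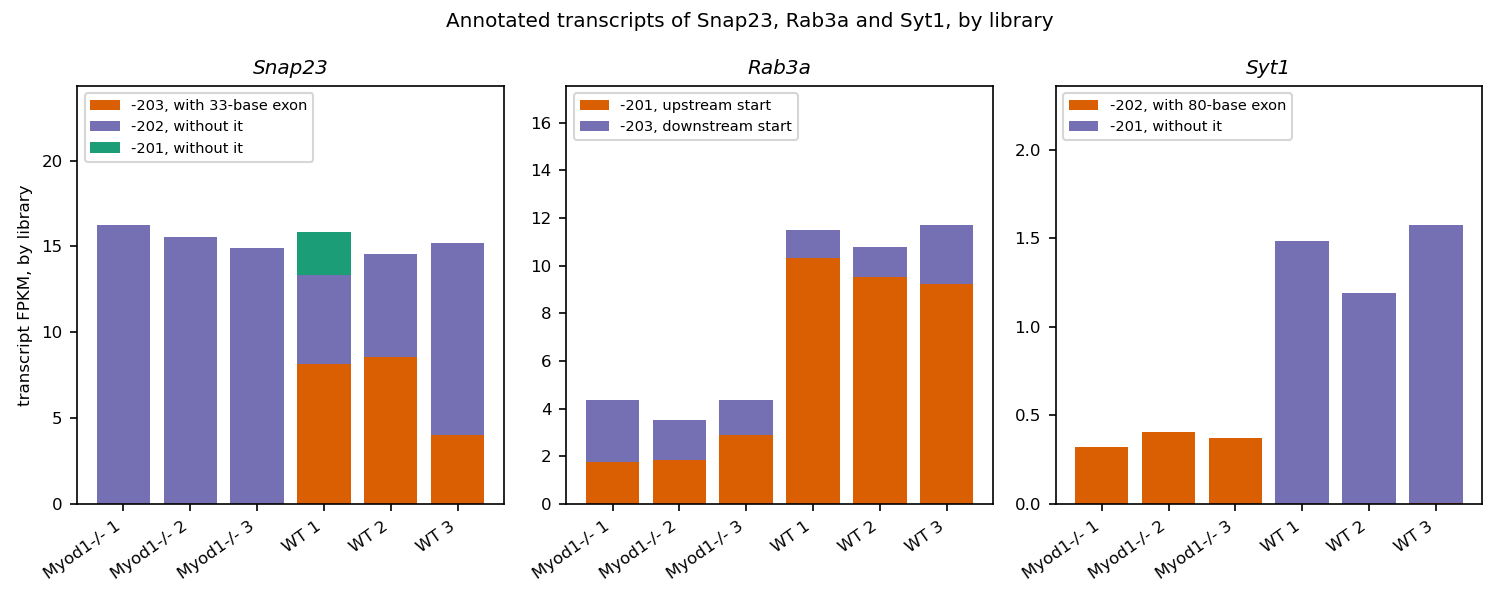
Level in FPKM of the main annotated transcripts of Snap23, Rab3a and Syt1 in each C2C12 Myod1-/- library (left bars) and C2C12 WT library (right bars). Snap23-203, with the exon of 33 bases, is seen in the 3 C2C12 WT libraries and in no C2C12 Myod1-/- library, while Syt1-201 and Syt1-202 change places.

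Syt1 and Rab3a also differed in transcripts. Syt1-202, which has an extra noncoding exon of 80 bases in the 5′ part of the transcript, had 0.322, 0.404 and 0.369 FPKM in C2C12 Myod1-/- libraries and 0, 0 and 0.00566 FPKM in C2C12 WT libraries. Syt1-201, which lacks it, was listed at 0 in all C2C12 Myod1-/- libraries and had 1.48, 1.19 and 1.57 FPKM in C2C12 WT libraries. Both transcripts hold the same 1263 coding bases. These levels are low, and the cause of the switch was not tested.

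Both tested Rab3 genes fell, where 33.3% of all genes fell. Rab3 GTPases sit on secretory vesicles and regulate their docking. Rab3a, the main form of synaptic vesicles, had 3.00, 2.42 and 2.91 FPKM in C2C12 Myod1-/- libraries, against 7.22, 6.88 and 7.67 FPKM in C2C12 WT libraries, and fell 2.62-fold (log2 difference -1.36, SE 0.10, adjusted p = 4.56e-05). Rab3d, the form of exocrine granules, had 6.55, 5.89 and 6.44 FPKM in C2C12 Myod1-/- libraries, against 14.9, 14.5 and 14.6 FPKM in C2C12 WT libraries, and fell 2.33-fold (log2 difference -1.21, SE 0.06, adjusted p = 6.84e-06). Neither gene had libraries that overlapped between genotypes, which held for 67.9% of all genes tested.

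Among the Rab3a transcripts the one that starts upstream, Rab3a-201 at chr8:70754711-70758635 on the + strand, had 1.74, 1.84 and 2.87 FPKM in C2C12 Myod1-/- libraries, against 10.3, 9.53 and 9.24 FPKM in C2C12 WT libraries. Rab3a-203, which starts at position 70755510, had 2.61, 1.67 and 1.48 FPKM in C2C12 Myod1-/- libraries and 1.17, 1.25 and 2.46 FPKM in C2C12 WT libraries. The upstream transcripts made up 38.0%, 50.3% and 62.7% of Rab3a transcript FPKM in C2C12 Myod1-/- libraries and 89.3%, 86.6% and 77.9% in C2C12 WT libraries. Both transcripts hold the same 660 coding bases.

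Myod1 protein binds DNA at E-boxes, CANNTG, and often at CAGCTG. RefSeq promoter windows (GRCm38.p6, 300 bases around a start, most of them before it) were found for 47 of the 61 genes, 62 windows in all. CANNTG, read on both strands, was in 40 of the 62, or 64.5%, and in 72.3% of all 32851 windows of that length. CAGCTG, which is one kind of CANNTG, was in 18 of the 62, or 29.0%, and in 16.3% of all windows. Of the windows of genes that fell, 4 of 8 held CANNTG, and of those that rose 13 of 17. CAGCTG was in 2 of 8 windows of genes that fell and in 7 of 17 of genes that rose. Windows of the same gene can overlap, as those of Stx7 do, so they are not independent. These shares were given no test. A match is only a match of letters, and binding was not measured. Both RefSeq windows of Rab3a, neither of which reaches the start of Rab3a-203, and those of Stx3 and Stxbp2, which both rose, are shown with CANNTG in capitals.
Rab3a, chr8:70754453-70754752, + strand: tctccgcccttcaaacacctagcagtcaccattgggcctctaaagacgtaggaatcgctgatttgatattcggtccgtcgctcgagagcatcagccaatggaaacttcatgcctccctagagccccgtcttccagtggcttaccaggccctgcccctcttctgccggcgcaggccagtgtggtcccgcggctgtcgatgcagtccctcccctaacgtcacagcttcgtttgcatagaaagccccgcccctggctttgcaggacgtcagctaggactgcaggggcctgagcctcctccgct
Rab3a, chr8:70754852-70755151, + strand: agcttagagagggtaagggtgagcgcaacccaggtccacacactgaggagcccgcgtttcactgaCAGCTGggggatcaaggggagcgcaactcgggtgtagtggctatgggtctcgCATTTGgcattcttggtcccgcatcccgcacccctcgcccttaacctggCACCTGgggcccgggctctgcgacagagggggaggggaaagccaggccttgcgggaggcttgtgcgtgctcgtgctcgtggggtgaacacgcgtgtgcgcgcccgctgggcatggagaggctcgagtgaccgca
Stx3, chr19:11819354-11819653, - strand: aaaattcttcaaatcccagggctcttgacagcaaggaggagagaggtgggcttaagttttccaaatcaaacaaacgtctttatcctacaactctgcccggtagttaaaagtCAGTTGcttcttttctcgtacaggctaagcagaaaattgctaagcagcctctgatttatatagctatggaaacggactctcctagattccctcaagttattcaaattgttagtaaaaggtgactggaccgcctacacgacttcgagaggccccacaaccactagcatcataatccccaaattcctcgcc
Stxbp2, chr8:3630859-3631158, + strand: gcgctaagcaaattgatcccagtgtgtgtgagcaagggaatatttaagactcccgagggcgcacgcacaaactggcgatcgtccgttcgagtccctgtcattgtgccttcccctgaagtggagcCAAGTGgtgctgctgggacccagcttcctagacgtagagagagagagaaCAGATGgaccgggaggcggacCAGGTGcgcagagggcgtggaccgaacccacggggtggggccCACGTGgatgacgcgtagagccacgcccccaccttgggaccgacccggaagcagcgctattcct

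The vesicle-associated and recycling proteins of the set moved in different directions. Syn1, which tethers synaptic vesicles to actin, had 1.71, 1.96 and 2.19 FPKM in C2C12 Myod1-/- libraries, against 3.09, 2.97 and 4.45 FPKM in C2C12 WT libraries, and fell (log2 difference -0.79, SE 0.18, adjusted p = 0.00849). Synj2, a phosphatase that strips clathrin adaptors from new vesicles, had 26.4, 27.1 and 26.6 FPKM in C2C12 Myod1-/- libraries, against 16.1, 14.2 and 15.1 FPKM in C2C12 WT libraries, and rose 1.76-fold (adjusted p = 3.60e-05). Its brain-enriched homolog Synj1 had 5.46, 5.26 and 5.27 FPKM in C2C12 Myod1-/- libraries and 5.00, 4.08 and 5.12 FPKM in C2C12 WT libraries, and did not pass the test (adjusted p = 0.168).

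Cplx2 was the only complexin that was tested. It had 5.48, 5.68 and 5.29 FPKM in C2C12 Myod1-/- libraries, against 4.37, 4.36 and 3.99 FPKM in C2C12 WT libraries, and rose 1.29-fold (log2 difference 0.36, SE 0.07, adjusted p = 0.00371). With the sum of annotated transcripts in place of the gene value Cplx2 was not tested, so its call rests on the gene value alone. Syp, the classic marker of synaptic vesicles, had 0.0768, 0.0573 and 0.0111 FPKM in C2C12 Myod1-/- libraries and 0.0356, 0.0850 and 0 FPKM in C2C12 WT libraries, so that it was under the filter in overlapping ranges.

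Taken by form, 16 of the 27 neuronal genes were under the filter, and 11 of the 16 were listed at 0 in at least 1 library. No neuronal gene under the filter passed 0.1004 FPKM in a C2C12 Myod1-/- library or 0.498 FPKM in a C2C12 WT library. The genotypes did not overlap for 5 of the 20 genes under the filter, against 67.9% of all genes tested. The share of all genes under the filter was not taken, so the count says nothing about these genes as a set. Of the 5, 4 were lower in C2C12 Myod1-/- cells (Rab3b, Cplx3 and Syt8 among them) and 1 was higher (Stx19), named after their values were seen. Rab3b, a Rab3 form of endocrine and neuronal cells, had 0.0324, 0.0170 and 0.0164 FPKM in C2C12 Myod1-/- libraries, against 0.356, 0.256 and 0.283 FPKM in C2C12 WT libraries. Cplx3, a complexin of retinal synapses, had 0, 0 and 0.0391 FPKM in C2C12 Myod1-/- libraries, against 0.498, 0.357 and 0.301 FPKM in C2C12 WT libraries. With no filter Rab3b, Cplx3 and Syt8 were called, while Stx19 was not. Of the 11 neuronal forms tested, 3 rose (Syt12, Stx1a, Cplx2), 4 fell (Syt13, Syt1, Rab3a, Syn1) and 4 did not pass the test. Of the 30 other forms tested, 14 rose, 5 fell and 11 did not pass the test. Both counts stand beside 27.9% of all genes that rose and 33.3% that fell. Of the neuron markers 2 of 3 tested fell (Tubb3 and Gap43), beside 33.3% of all genes. Both passed the filter only through their level in C2C12 WT cells, and their part in the result was not tested. Neuroendocrine markers summed to at most 0.0365 FPKM in C2C12 Myod1-/- libraries and 0.0985 FPKM in C2C12 WT libraries.

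Summed FPKM of the 27 neuronal forms came to 79.3 ± 2.90 in C2C12 Myod1-/- cells and 119.6 ± 4.32 in C2C12 WT cells (SD, n = 3 each). Without Syt13 the sums were 67.4 ± 2.73 in C2C12 Myod1-/- cells and 67.9 ± 1.38 in C2C12 WT cells, which differ by less than the spread between libraries. Syt13 therefore carried nearly all of the difference in the sum. Vamp2, which did not pass the test, was the largest of the rest. The other forms summed to 350.2 ± 8.38 FPKM in C2C12 Myod1-/- cells and 297.5 ± 11.5 FPKM in C2C12 WT cells. Of the 11 genes at 10 FPKM or more in every library, 3 were neuronal forms.

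**Figure D4:**
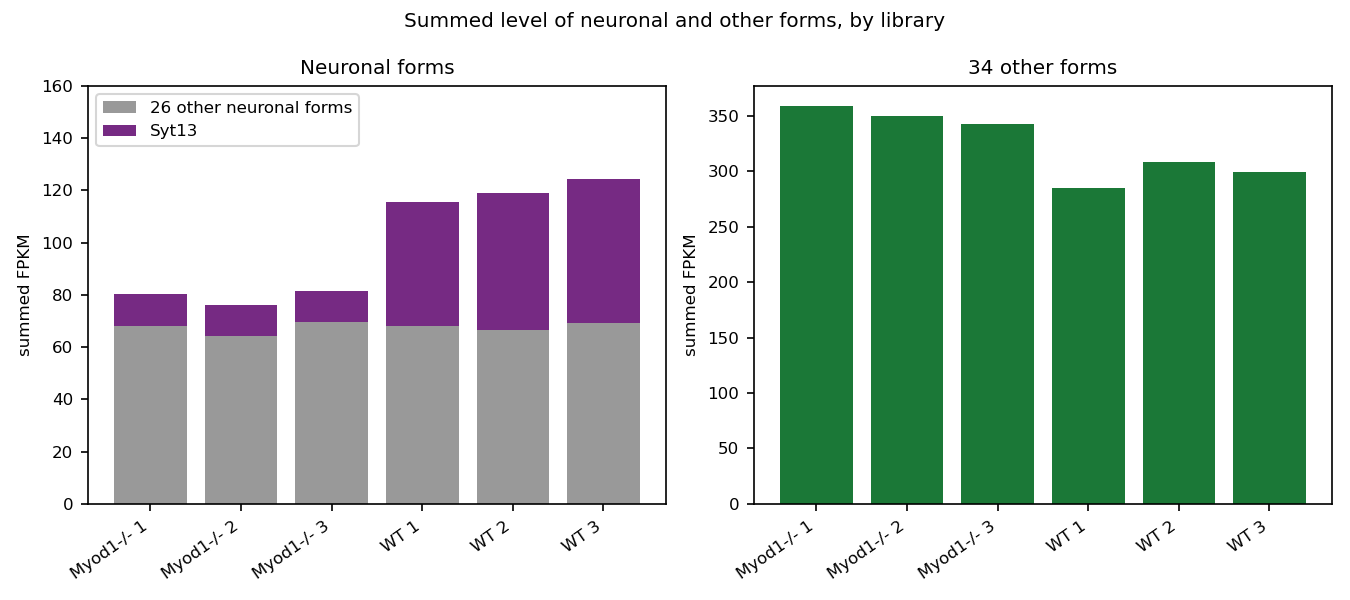
Summed FPKM in each library of the 27 neuronal forms, with Syt13 in purple and the other 26 in grey (left panel), and of the 34 other forms (right panel), C2C12 Myod1-/- libraries left of C2C12 WT libraries. The grey part is level, at 64.3 to 69.6 FPKM in C2C12 Myod1-/- libraries and 66.5 to 69.3 FPKM in C2C12 WT libraries.

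To set neuronal forms directly against their homologs, the log2 ratio of 8 pairs was taken in each library, and 6 of them are given here. An exact two-sided permutation test over 3 against 3 libraries cannot go below p = 0.1, so no pair could reach 0.05, and 5 of the 6 gave that smallest value (0.114 adjusted over the 8). The ratio was below all C2C12 WT libraries in every C2C12 Myod1-/- library for 3 of the 6 and above them for 2. Of the 3 lower pairs, Rab3a over Rab3d came to -0.028 with an added 1 FPKM (exact permutation p = 0.6), and Stx1a over Stx4a to -0.41 with the sum of annotated transcripts (exact permutation p = 0.3). The largest shift of the 6 was for Synj1 over Synj2, at -2.30 ± 0.04 in C2C12 Myod1-/- cells and -1.66 ± 0.12 in C2C12 WT cells (SD, n = 3 each).

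Stx1a over Stx4a stood at -2.33 ± 0.06 in C2C12 Myod1-/- cells and -1.83 ± 0.16 in C2C12 WT cells. Synj2 and Stx4a rose, while Stx1a rose by a smaller log2 difference and Synj1 did not pass the test. Rab3a over Rab3d differed by -0.15. Vamp1 over Vamp3 differed by 0.32 and Vamp2 over Vamp3 by 0.29, the last with overlapping libraries (exact permutation p = 0.2). Snap25 over Snap23 differed by 0.29, and its direction turned with an added 1 FPKM (-0.013), since Snap25 was near 0. Its libraries came close to a tie, at -6.54336 in C2C12 Myod1-/- replicate 3 and -6.54349 in C2C12 WT replicate 3. Its place among the pairs without overlap therefore carries little weight.

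**Figure D5:**
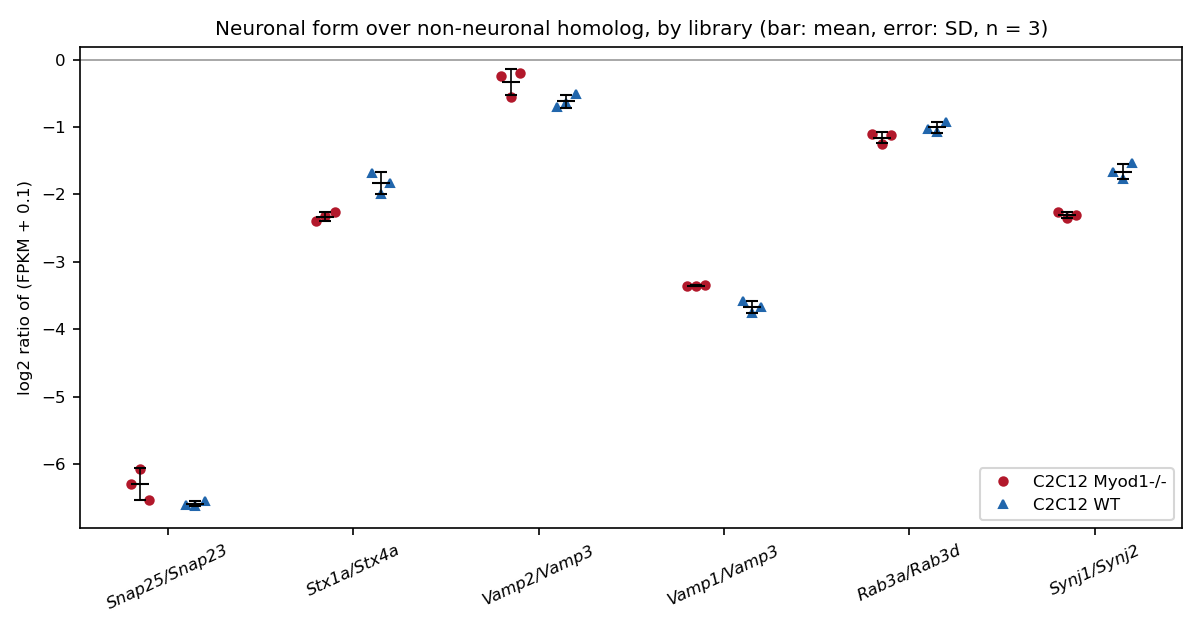
Log2 ratio of a neuronal form to its non-neuronal homolog in each C2C12 Myod1-/- library (red circles, left) and C2C12 WT library (blue triangles, right), with mean and SD (n = 3). All 6 pairs lie below 0, and 3 of them lie lower in every C2C12 Myod1-/- library than in any C2C12 WT library.

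The SNAREs were also viewed by the compartment they are known for, a grouping made after the values were seen, and these counts stand beside 27.9% of all genes that rose and 33.3% that fell. Of the 5 SNAREs of late endosomes and lysosomes, Stx7, Stx8 and Vamp8 rose, while Vamp7 and Vti1b did not pass the test. Of the 5 of the trans-Golgi network and early endosomes, Stx6, Vamp4 and Vti1a rose, while Stx16 and Stx12 did not pass the test. Of 7 genes of the plasma membrane set outside neurons, Stx3, Stx4a, Stxbp2 and Stxbp3 rose, Vamp3 fell, and Snap23 and Stx2 did not pass the test. Of the 10 SNAREs of the endoplasmic reticulum and Golgi, 3 rose, 1 fell and 6 did not pass the test. Of the 6 synaptic genes, Stx1a rose, 3 did not pass the test and 2 were under the filter.

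Other genes of vesicle release were taken from lists of the fusion and recycling machinery, 90 of 103 of which were listed and 61 tested. Of these 61 genes 16 rose and 27 fell, beside 27.9% of all genes that rose and 33.3% that fell. Their median log2 difference was -0.20. Among the SNARE partners and the factors that take SNARE complexes apart, 5 of 16 rose and 5 fell. Gosr1, a Golgi SNARE, rose 2.19-fold (adjusted p = 9.04e-06), and Napg rose while its homologs Napa and Napb fell.

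Of 10 priming, docking and active zone genes tested, 6 fell and 2 rose, where 33.3% of all genes fell and 27.9% rose. These lists were given no test of their own. Ppfia4, a liprin scaffold, averaged 0.0675 ± 0.0262 FPKM in C2C12 Myod1-/- cells and 3.72 ± 0.220 FPKM in C2C12 WT cells (SD, n = 3 each), and fell by 4.52 on the log2 scale (adjusted p = 2.06e-06). With an added 1 FPKM Ppfia4 fell by 2.14. Unc13d (Munc13-4), a priming factor of lytic granules, averaged 0.398 ± 0.0602 FPKM in C2C12 Myod1-/- cells and 4.43 ± 0.261 FPKM in C2C12 WT cells, and fell by 3.19 on the log2 scale (adjusted p = 3.16e-06), or by 1.96 with an added 1 FPKM. Ppfia4, Unc13d and Dnm3 passed the filter only through their level in C2C12 WT cells. Sytl2, a synaptotagmin-like Rab27 effector, fell by 2.59 on the log2 scale, and its relative Sytl5 by 1.61. Ppfia1, the widely expressed liprin, rose (log2 difference 0.76), but its difference was -0.55 with the sum of annotated transcripts.

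Of 11 vesicle recycling genes tested, 8 fell and 2 rose, beside the same shares of all genes. Bin1, an amphiphysin that shapes the T-tubules of muscle, averaged 54.7 ± 1.95 FPKM in C2C12 Myod1-/- cells and 130.8 ± 12.1 FPKM in C2C12 WT cells and fell (adjusted p = 1.72e-05), though its difference was 0.043 with the sum of annotated transcripts. Dnm3, a dynamin, fell by 1.99 on the log2 scale. In the vesicle membrane list 3 of 11 rose and 3 fell, Syngr1 (synaptogyrin) with a log2 difference of 1.05. In the exocyst, the complex that tethers vesicles to the plasma membrane, 3 of 9 rose and 3 fell, Exoc1 with a log2 difference of 1.40.

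The C2-domain relatives of synaptotagmins contained the pair of ferlins that act in muscle. Dysf (dysferlin), which reseals the torn surface membrane of muscle fibres, averaged 0.514 ± 0.0207 FPKM in C2C12 Myod1-/- cells and 4.55 ± 0.203 FPKM in C2C12 WT cells, and fell by 2.92 on the log2 scale (adjusted p = 1.18e-06). Myof (myoferlin), a ferlin of myoblasts, averaged 36.2 ± 0.563 FPKM in C2C12 Myod1-/- cells and 23.2 ± 1.60 FPKM in C2C12 WT cells and rose (adjusted p = 0.000129). Esyt1 fell (log2 difference -0.78). All 6 myotube markers fell along with Dysf and Bin1, and their part in these changes was not tested.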

How the data were processed

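Total RNA from 3 C2C12 Myod1-/- and 3 C2C12 WT samples was depleted of rRNA and made into libraries with a kit that does not keep strand. Per the labels and the study's methods, reads were mapped to GRCm38 with HISAT2/TopHat and quantified by StringTie, and versions are not given in the sources used here. The authors deposited FPKM of 28892 genes and 92513 transcripts, of which 11474 were assembled and have no gene link. No counts were used, since the files hold FPKM. The short column names were tied to the samples through the published gene table, whose values under genotype headings were equal for 3200 of 3200 genes (relative tolerance 0.001).

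limma 3.58.1 in R 4.3.3 was fitted on log2(FPKM + 0.1) by genotype, with an intensity trend, for genes averaging 0.5 FPKM or more, and p-values were adjusted by Benjamini-Hochberg over 14045 genes. The fit was also run on values simulated from a normal distribution with equal spread in both genotypes. Such values follow the assumptions of the fit, so the run does not test StringTie's estimates or the nature of the replicates. The depth, 16.2 to 18.3 M fragments, was read from the steps of low FPKM. Neuronal forms over their homologs were compared with an exact permutation test (scipy 1.17.1). The genes and lists were chosen with earlier results of these data known. Values per library are given for genes called with at least a 2-fold change, for the 8 pairs and for the most abundant gene of each family, and from other lists for at most 3 by level and 3 by change. Another 2 genes, the 2 pairs that hold them and a transcript sequence are not reported here, though the genes stay in the counts. Any other gene was chosen after its values were seen. Alternatives were other added constants, filters and scalings, a fit without the trend, a replicate block, each library left out, and sums of annotated transcripts. Transcript structures came from GENCODE and promoter windows from RefSeq.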

Additional observations from a re-analysis of the deposited data

How the results depend on the processing

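Of 30 named or called vesicle release genes with a test, 20 kept their direction and their side of the threshold under every alternative in which they were tested. Members called lower numbered 9 and members called higher 17, and with each library left out the counts were 9 lower and 16 to 17 higher. With no filter on low values 8 members were lower at the thresholds of the study, in place of 5. With the sum of annotated transcripts 8 members were called lower and 12 higher. Of the 26 calls 7 were lost there (Snap47, Stx1a, Stx6, Syt17, Vamp4, Vamp8 and Cplx2, the last not tested there), and Syt8 was gained. In that setting 2602 of all genes rose, in place of 3914, and the difference was -0.46 for Synj1, -0.37 for Vamp2, -0.048 for Vamp8, 0.043 for Bin1, -0.86 for Exoc2 and -0.55 for Ppfia1, all with the opposite sign. That setting leaves out the assembled transcripts. It also turned Vamp2 over Vamp3 to -0.18, and an added 1 FPKM turned Snap25 over Snap23 to -0.013. Without C2C12 Myod1-/- replicate 1 the difference of Esyt2 was 0.0062. The causes were not tested.

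Same-numbered libraries did not deviate together (correlations of -0.10, -0.14 and -0.03), so no pairing by number was seen in these values. The check cannot tell whether same-numbered samples were prepared together. With a replicate block 16 members rose and 9 fell, and Stx1a lost its call (adjusted p = 0.0708). Without counts, counting intervals could not be given, and values near 0.06 FPKM on a gene of 1 kb rest on single fragments.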
